A study of Mus musculus with 22 samples.

Results

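Wdfy1, Rab4a, Rell1, Ide, Pik3ip1, Rasl11a and Glipr2 were followed here across lung epithelial cells (ECs) of 3 mouse genotypes and 2 states. They are 7 of the 54373 genes listed in the count tables. They were chosen by their read counts in knockout and wildtype (WT) libraries, which parted a knockout line from WT, although they lie on other chromosomes than Ahr and Cyp1b1, the 2 genes the lines were made to lack. The same counts that chose them are therefore given below as a description, with no test of a knockout against WT.

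RNA was sequenced from live lung cells sorted as CD45- and EpCAM+, a gate meant to keep ECs and to leave out leukocytes, and the study also describes a gate against CD31+ endothelial cells. WT mice were C57BL/6. The AhR-KO and CYP1B1-KO mice were knockout lines backcrossed to C57BL/6. Male and female mice older than 7 weeks were used in the study, the labels give no sex or age per library, and wildtype animals were at times bought from a breeder. The naive libraries come from mice that the labels give no allergen and comprise 4 WT, 3 AhR-KO and 3 CYP1B1-KO libraries. The HDM libraries come from mice sensitized and challenged through the nose with house dust mite extract, killed 72 h after the last instillation, and comprise 4 libraries of each genotype. The comparisons asked how loss of the receptor or of the enzyme alters gene expression in these cells, at rest and in allergic airway inflammation. No label says whether libraries of a group came from separate mice, so the errors below measure the spread between libraries.

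AhR, the arylhydrocarbon receptor, is a ligand-activated transcription factor that binds DNA at xenobiotic response elements, and CYP1B1 is a cytochrome P450 enzyme whose gene it can induce. Epithelial cells of the lung line the airways and alveoli and meet inhaled allergen first. The genes followed here do not form one pathway. Wdfy1 and Rab4a act on early endosomes, the compartments that sort what a cell has taken up. Rell1 and Pik3ip1 encode membrane proteins, one related to a TNF receptor and one a brake on phosphoinositide 3-kinase (PI3K). Rasl11a is a RAS-like small GTPase, Ide is a peptide-degrading enzyme, and Glipr2 sits at the Golgi membrane and binds the autophagy protein beclin.

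In the GENCODE M21 annotation of GRCm38, the build of the deposited counts, Wdfy1 (ENSMUSG00000073643) lies on the minus strand of chromosome 1 (79702262 to 79776143) and Rab4a (ENSMUSG00000019478) on the plus strand of chromosome 8 (123805985 to 123835287). Chromosome 5 holds both Rell1 (ENSMUSG00000047881, minus strand, 63908897 to 63968897) and Rasl11a (ENSMUSG00000029641, plus strand, 146845071 to 146847726). Ide (ENSMUSG00000056999) is on the minus strand of chromosome 19 (37268743 to 37337852), Pik3ip1 (ENSMUSG00000034614) on the plus strand of chromosome 11 (3330401 to 3342971) and Glipr2 (ENSMUSG00000028480) on the plus strand of chromosome 4 (43957401 to 43979118). Ahr is on chromosome 12 and Cyp1b1 on chromosome 17. Exons of Wdfy1, Rell1 and Pik3ip1 overlap a gene of the opposite strand over 1.94%, 2.70% and 2.13% of their length, and the other 4 genes share no exon base with another gene. Whether the counting used strand is not given in the sources used here.

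Promoter windows of 250 bases before the RefSeq start (GRCm38.p6) were at hand for 5 of the 7 genes. The windows of Rell1 and Rasl11a are shown because both end at the annotated 5′ end of the gene and each gene stood apart from WT in a different line. Capitals mark GCGTG, the core of the xenobiotic response element, or its reverse complement CACGC.
Rell1, minus strand, chr5:63968898-63969147: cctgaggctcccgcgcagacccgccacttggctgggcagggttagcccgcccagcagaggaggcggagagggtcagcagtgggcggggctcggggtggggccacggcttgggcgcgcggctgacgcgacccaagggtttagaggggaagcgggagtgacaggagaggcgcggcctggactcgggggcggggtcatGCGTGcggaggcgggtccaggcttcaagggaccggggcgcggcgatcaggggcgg
Rasl11a, plus strand, chr5:146844821-146845070: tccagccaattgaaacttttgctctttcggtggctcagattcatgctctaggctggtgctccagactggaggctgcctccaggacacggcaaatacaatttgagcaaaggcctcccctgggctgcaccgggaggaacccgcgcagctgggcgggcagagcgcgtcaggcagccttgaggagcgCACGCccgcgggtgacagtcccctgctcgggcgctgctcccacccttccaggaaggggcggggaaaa
Each window holds 1 match. Searched on both strands, the windows of Pik3ip1 and Glipr2 also hold 1 match each and that of Ide holds 0, while 28.2% of all 32851 promoter windows of this length hold at least 1. The windows of Pik3ip1, Glipr2 and Ide lie inside the annotated gene. That of Ide spans 37334545 to 37334794, while the annotated 5′ end of the gene is at 37337852. The longer TTGCGTG, which contains GCGTG, was in none of the 5 windows and in 0.925% of all. The E-box CACGTG, to which clock and MYC factors can bind, was in none of the 5 and in 6.02% of all. These letters are a description of the windows and say nothing of binding.

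Total counts ranged from 10476829 to 17707000 per naive library and from 9654825 to 17878442 per HDM library. Levels are given as counts per mio (CPM) on library sizes normalized with TMM over all 22 libraries. On that scale, 3 counts, the limit that a count of 0 allows, came to between 0.138 and 0.213 CPM in naive libraries and to between 0.107 and 1.36 CPM in HDM libraries, which covers counting error only. The share of 1 predicted gene, Gm10800, was 9.54% to 29.2% per naive library and 0.00819% to 71.9% per HDM library. The 5 epithelial markers were present in every library, summing to between 1176 and 2263 CPM in naive and to between 489 and 957 CPM in HDM libraries. The 12 hematopoietic markers, which the gate should remove, summed to between 28.2 and 237 CPM in naive libraries and to between 120 and 4904 CPM in HDM libraries. The 4 Y-linked genes summed to between 66.6 and 250 CPM in the 10 naive libraries, to 172 and 191 CPM in AhR-KO HDM replicates 3 and 4, and to at most 0.258 CPM in the 10 other HDM libraries. The naive and HDM tables were also separate runs, so state and run cannot be told apart. In WT and CYP1B1-KO the difference in Y-linked reads coincides with state as well, whereas in AhR-KO 2 of the 4 HDM libraries had them. Ahr was at 17.6 ± 2.36 CPM (SD, n = 3) in the naive libraries labelled AhR-KO and at 9.58 ± 2.76 (SD, n = 4) in WT. Cyp1b1 was at 5.10 ± 1.28 CPM (SD, n = 3) in the naive libraries labelled CYP1B1-KO and at 1.14 ± 0.564 (SD, n = 4) in WT. Neither mean was lower in the line made to lack the gene. The counts are summed over all exons, so a transcript without its deleted exons is still counted and these values do not check the labels.

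All 7 genes passed the filter on low counts in both tables and over both tables together. At the naive stage, the libraries labelled AhR-KO did not overlap those of WT for 5 of the 7 genes, beside 3.56% of the 15547 genes tested, and those labelled CYP1B1-KO for 4 of the 7, beside 2.93%. After HDM, AhR-KO libraries stood clear of WT for 3 of the 7 genes, beside 19.5% of the 14161 genes tested, and CYP1B1-KO libraries for 1, beside 0.621%. The genes were chosen for such gaps, so nothing is read from these counts. The same 5 and 4 genes were apart at the naive stage on each of 4 other scalings of the counts. After HDM, Wdfy1, Rab4a and Glipr2 were apart in AhR-KO on all of them, Pik3ip1 joined them on 2, and Ide in CYP1B1-KO was apart on 1 of the 4.

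**Figure D1:**
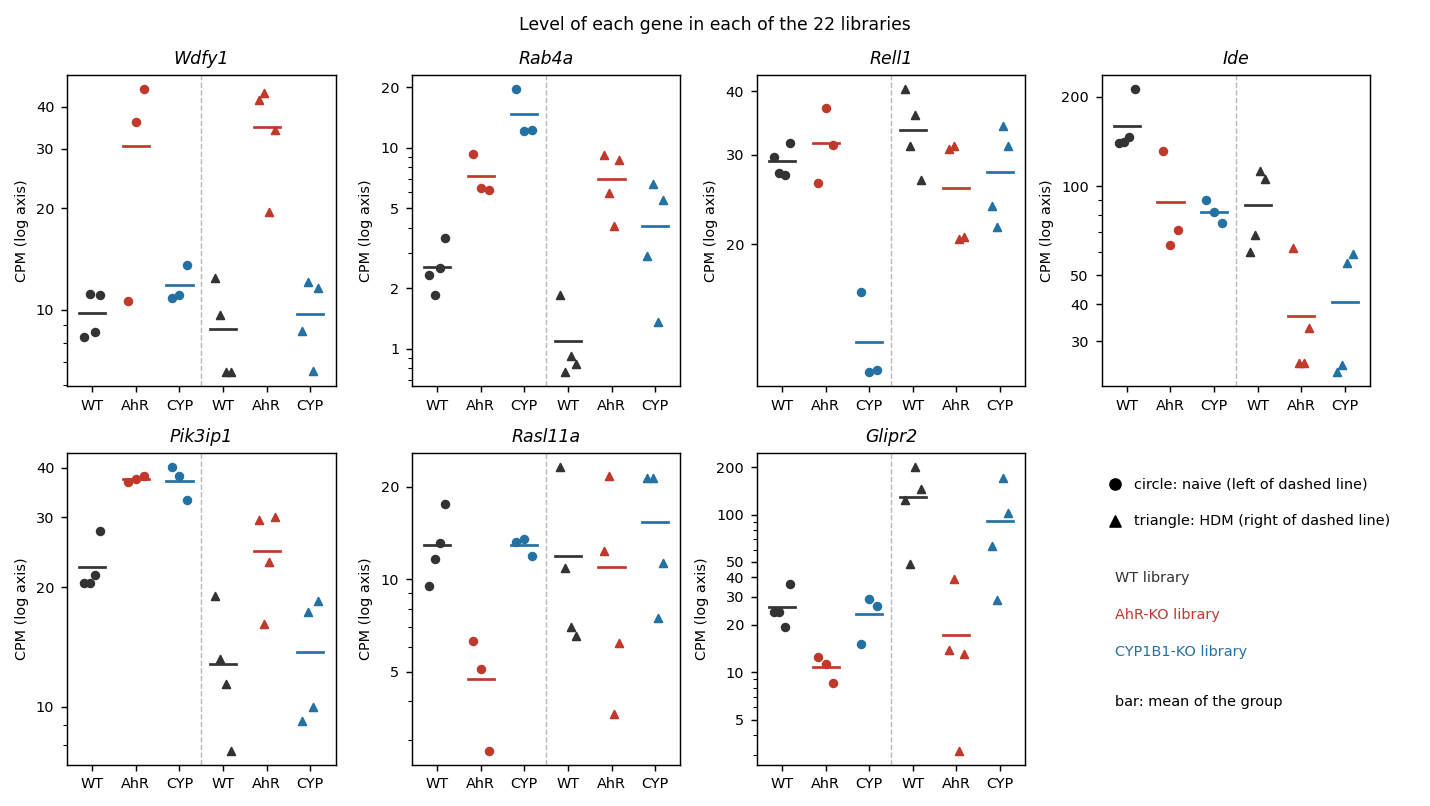
CPM of each of the 7 genes (vertical log axes) in each of the 22 libraries, by genotype, with naive libraries as circles left of the dashed line and HDM libraries as triangles right of it, and bars at the group means. Wdfy1 is high in AhR-KO libraries except 1 naive library at 10.6 CPM, and Rell1 is low in the 3 naive CYP1B1-KO libraries, at 11.2 to 16.1 CPM.

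Wdfy1 encodes a WD-repeat and FYVE-domain protein that binds phosphatidylinositol 3-phosphate on early endosomes and helps to recruit the adaptor TRIF to the Toll-like receptors TLR3 and TLR4. In naive WT libraries it was counted at 8.29, 11.2, 8.60 and 11.1 CPM, and in naive CYP1B1-KO libraries at 10.8, 11.1 and 13.6 CPM. Naive AhR-KO replicate 1 was at 10.6 CPM, within the WT range, whereas replicates 3 and 4 were at 36.1 and 45.2 CPM. The naive AhR-KO group was thus split, and its libraries overlapped WT.

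After HDM, Wdfy1 was at 41.7, 44.0, 19.6 and 34.1 CPM in AhR-KO, and at 12.5, 9.64, 6.54 and 6.54 CPM in WT. CYP1B1-KO libraries were at 8.66, 12.1, 6.59 and 11.7 CPM, within the WT range. Every AhR-KO library was thus above every WT and CYP1B1-KO library after HDM. The log2 fold change (log2FC) of AhR-KO over WT was 1.61 (standard error, SE, 0.35) at the naive stage and 1.99 (SE 0.32) after HDM, and that of CYP1B1-KO over WT was 0.21 (0.35) and 0.19 (0.32). Without naive AhR-KO replicate 1 the naive value was 2.01. The 2 AhR-KO groups ranked first and second among the 6 groups and overlapped, and the 4 other groups, with means from 8.80 to 11.8 CPM, overlapped each neighbour in that order. Mrpl44, the gene whose exons Wdfy1 overlaps on the other strand, was at 12.7 to 14.5 CPM in naive AhR-KO and at 11.4 to 15.7 CPM in naive WT.

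Rab4a, the small GTPase of rapid recycling from early endosomes to the plasma membrane, was higher in both lines. Naive WT libraries were at 2.33, 1.85, 2.51 and 3.54 CPM, from 30 to 77 counts. The naive AhR-KO libraries were at 9.34, 6.32 and 6.15 CPM, and the naive CYP1B1-KO libraries at 19.7, 12.2 and 12.3 CPM. The 3 genotypes did not overlap at the naive stage, with CYP1B1-KO highest and WT lowest. The library at 19.7 CPM, naive CYP1B1-KO replicate 2, also had fewer reads of the 3 club cell markers (352 CPM beside 4463 and 3712) and of the 5 alveolar type 2 markers (668 CPM beside 2858 and 1983) than the other libraries of its group, and their part in its values was not tested. Without it, the CYP1B1-KO to WT values were 2.17 for Rab4a, -1.46 for Rell1, -1.11 for Ide and 0.58 for Pik3ip1 on the log2 scale, each in the direction given for all 3 libraries. The log2FC over WT was 1.49 (SE 0.27) in AhR-KO and 2.46 (SE 0.27) in CYP1B1-KO.

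After HDM, Rab4a was at 1.84, 0.761, 0.913 and 0.833 CPM in WT, where replicate 2 rests on 3 counts. AhR-KO libraries were at 9.21, 5.93, 4.09 and 8.66 CPM, and CYP1B1-KO libraries at 2.89, 6.63, 1.36 and 5.51 CPM. AhR-KO was clear of WT, and CYP1B1-KO was clear of it but for replicate 3. The log2FC over WT was 2.66 (SE 0.49) in AhR-KO and 1.88 (SE 0.50) in CYP1B1-KO. Over the 6 groups, naive CYP1B1-KO came first without overlap with the next, and both WT groups came last. Rab4a lies within the span of Gm20388, a read-through gene model on the same strand, and shares no exon base with it.

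Rell1, a membrane protein related to the TNF receptor family member RELT, parted CYP1B1-KO from both other genotypes at the naive stage. CYP1B1-KO libraries were at 16.1, 11.2 and 11.3 CPM, WT libraries at 29.7, 27.7, 27.4 and 31.7 CPM, and AhR-KO libraries at 26.4, 37.0 and 31.4 CPM. The log2FC of CYP1B1-KO over WT was -1.24 (SE 0.19), whereas that of AhR-KO was 0.09 (SE 0.18). After HDM this gap was not seen. CYP1B1-KO libraries were at 23.8, 21.6, 34.2 and 31.2 CPM, WT at 40.4, 31.2, 35.9 and 26.7 CPM, and AhR-KO at 30.7, 31.3, 20.5 and 20.7 CPM. All 3 ranges overlapped, and the log2FC of CYP1B1-KO over WT was -0.24 (SE 0.19). Among the 6 groups naive CYP1B1-KO was last, below every library of the 5 other groups, whose means of 25.8 to 33.6 CPM overlapped in turn.

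Pik3ip1 encodes a transmembrane protein that binds the catalytic subunit of PI3K and lowers its activity. It was higher in both lines at the naive stage and by a similar amount. Naive WT libraries were at 20.5, 20.5, 21.5 and 27.7 CPM, AhR-KO libraries at 37.0, 37.5 and 38.1 CPM, and CYP1B1-KO libraries at 40.2, 38.1 and 33.2 CPM. Both lines stood clear of WT and overlapped each other, with log2FCs of 0.71 (SE 0.14) and 0.66 (SE 0.14).

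After HDM, Pik3ip1 was at 19, 13.2, 11.4 and 7.76 CPM in WT, at 29.6, 16.1, 23.2 and 30.0 CPM in AhR-KO and at 9.20, 17.3, 9.96 and 18.5 CPM in CYP1B1-KO. AhR-KO replicate 2 lay within the WT range, and CYP1B1-KO and WT shared theirs. The log2FCs over WT were 0.96 (SE 0.30) and 0.13 (SE 0.30). The naive knockout groups were the highest of the 6, clear of all others, and CYP1B1-KO and WT after HDM the lowest.

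Rasl11a, a small GTPase of the RAS family that has been placed in the nucleolus, was lower in AhR-KO than in both other genotypes at the naive stage. Those 3 libraries were at 6.29, 5.11 and 2.77 CPM, from 45 to 105 counts, below naive WT at 9.49, 11.6, 13.1 and 17.6 CPM and naive CYP1B1-KO at 13.3, 13.5 and 11.9 CPM. The log2FC was -1.46 (SE 0.27) in AhR-KO and -0.07 (SE 0.25) in CYP1B1-KO. After HDM the spread within each genotype exceeded any gap between them. WT libraries were at 23.2, 10.9, 7.0 and 6.54 CPM, AhR-KO libraries at 12.4, 21.7, 3.64 and 6.19 CPM and CYP1B1-KO libraries at 21.3, 21.3, 7.5 and 11.3 CPM. The log2FC of AhR-KO over WT was then -0.05 (SE 0.57), and its sign changed when single libraries were left out (-0.60 to 0.36).

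Ide encodes insulin-degrading enzyme, a zinc metallopeptidase that cleaves insulin, amyloid-beta and other short peptides. It was the most abundant of the 7 genes in naive WT per length, at 21.3 CPM per kb of exon, where Rab4a had 1.46. Naive WT libraries were at 140, 141, 146 and 212 CPM, and CYP1B1-KO libraries at 89.8, 81.5 and 74.9 CPM. AhR-KO replicate 1 was at 132 CPM, close to the lowest WT library, and replicates 3 and 4 were at 63.2 and 71.2 CPM. Both lines stood clear of WT, AhR-KO by a margin that replicate 1 makes small. The log2FCs over WT were -0.86 (SE 0.25) in AhR-KO and -1.02 (SE 0.25) in CYP1B1-KO, and -1.28 in AhR-KO without replicate 1.

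After HDM, Ide was at 60.2, 68.3, 112 and 106 CPM in WT, at 61.7, 25.4, 25.5 and 33.4 CPM in AhR-KO and at 23.6, 25.1, 55.2 and 59.0 CPM in CYP1B1-KO. AhR-KO replicate 1 overlapped WT, and CYP1B1-KO was just clear of it on this scale. The log2FCs were -1.29 (SE 0.34) and -1.14 (SE 0.34). Naive WT was the highest of the 6 groups and clear of the next, and both lines after HDM were the lowest and overlapped. An intronic pseudogene on the same strand, Rpl10-ps6, shares no exon with Ide. It had 43 counts over the 4 naive WT libraries (0.358 to 0.828 CPM), 11 over the 3 naive AhR-KO libraries (0.172 to 0.246 CPM) and 8 over the 3 naive CYP1B1-KO libraries (0.0589 to 0.213 CPM), with both lines below WT. After HDM both lines overlapped WT for Rpl10-ps6, with 29 counts in WT, 24 in AhR-KO and 15 in CYP1B1-KO. This gene was named after its values were seen.

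**Figure D2:**
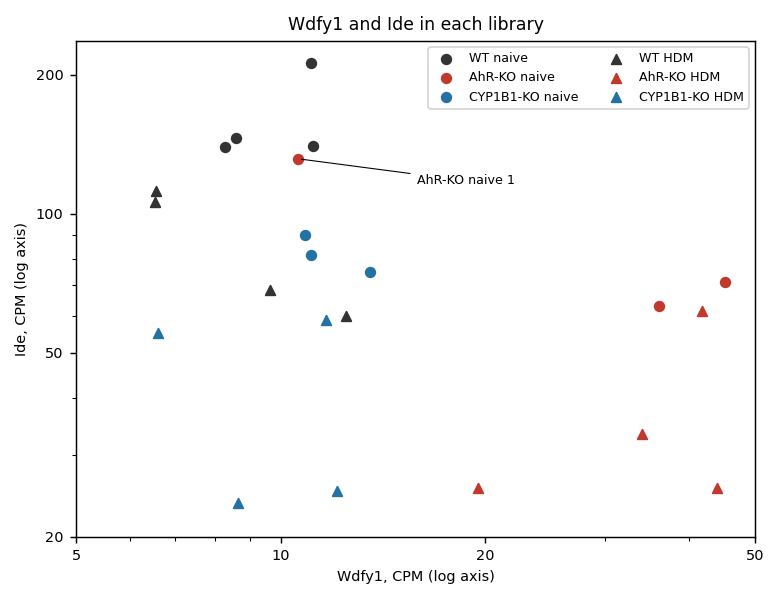
Wdfy1 (horizontal log axis, CPM) against Ide (vertical log axis, CPM) in each library, naive as circles and HDM as triangles, coloured by genotype. Naive AhR-KO replicate 1, at 10.6 CPM of Wdfy1 and 132 CPM of Ide, sits beside the naive WT libraries, while the 6 other AhR-KO libraries sit to the right at 19.6 CPM of Wdfy1 or more.

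Naive AhR-KO replicate 1 thus had WT-like levels of Wdfy1 and, nearly, of Ide. For Rab4a, Pik3ip1, Rasl11a and Glipr2 the same library lay with the 2 other naive AhR-KO libraries and outside the WT range. Its Ahr level of 17.1 CPM also lay between theirs, 15.5 and 20.1 CPM. The 5 alveolar type 2 markers summed to 4928 CPM in it, within the naive WT range of 2103 to 5009 CPM, and to 1481 and 1303 CPM in replicates 3 and 4. The part of these markers in the split was not tested.

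Glipr2, a CAP-superfamily protein anchored at the Golgi that binds beclin, was low in AhR-KO in both states. Naive AhR-KO libraries were at 12.6, 11.3 and 8.49 CPM, naive WT at 24.2, 24.3, 19.4 and 36.2 CPM, and naive CYP1B1-KO at 15.0, 29.3 and 26.2 CPM. Only AhR-KO stood clear of WT, with a log2FC of -1.28 (SE 0.25), beside -0.21 (SE 0.24) in CYP1B1-KO. After HDM, WT libraries were at 124, 48.2, 200 and 146 CPM, AhR-KO libraries at 13.9, 38.9, 3.18 and 13.1 CPM, and CYP1B1-KO libraries at 62.9, 28.5, 170 and 102 CPM. AhR-KO was again below every WT library, with a log2FC of -2.86 (SE 0.65), or -3.63 without AhR-KO HDM replicate 2, and CYP1B1-KO overlapped both. WT and CYP1B1-KO after HDM ranked first and second, and every group overlapped the next.

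Hematopoietic markers, like Glipr2, were lower in every AhR-KO library than in every WT library after HDM. The 12 markers summed to between 1498 and 4746 CPM in WT HDM libraries, between 120 and 919 CPM in AhR-KO and between 276 and 4904 CPM in CYP1B1-KO, and none was at or under 3 counts in all libraries of a group. In CYP1B1-KO, replicate 2, with the fewest hematopoietic reads (276 CPM), also had the lowest Glipr2 (28.5 CPM). Within AhR-KO, replicates 1 and 2 had 907 and 919 CPM of markers but 13.9 and 38.9 CPM of Glipr2. Replicate 4 of AhR-KO had 120 CPM of markers and 13.1 CPM of Glipr2. At the naive stage, where these markers summed to 34.9 to 58.3 CPM in AhR-KO and to 28.2 to 237 CPM in WT, Glipr2 was also low in AhR-KO. WT replicate 4 had the fewest hematopoietic reads of the naive WT libraries (28.2 CPM) and the highest Glipr2 (36.2 CPM). The part of other cells in the HDM values was not tested. In bulk RNA, fewer cells of a type and less RNA per cell cannot be told apart.

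**Figure D3:**
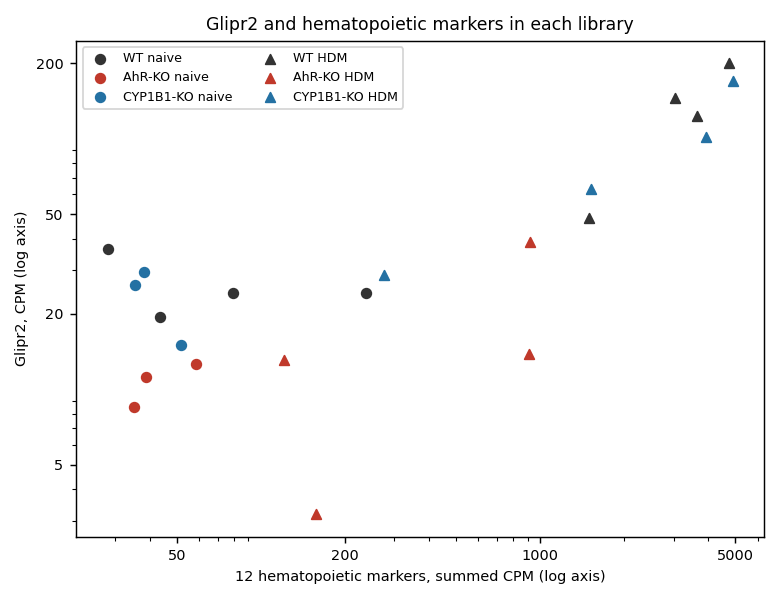
Glipr2 (vertical log axis, CPM) against the summed CPM of 12 hematopoietic markers (horizontal log axis) in each library, naive as circles and HDM as triangles, coloured by genotype. HDM libraries with 1498 CPM of markers or more have at least 48.2 CPM of Glipr2, and the AhR-KO libraries of both states lie at 38.9 CPM or less.

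Epithelial markers also differed between AhR-KO and WT after HDM. The club markers summed to 1625 to 7873 CPM in AhR-KO and to 192 to 1725 CPM in WT, those of alveolar type 1 cells to 2688 to 15894 and 473 to 3777 CPM, and those of ciliated cells to 93.2 to 173 and 49.3 to 106 CPM. Of the general epithelial markers 2 of 5, of the club markers 1 of 3 and of the ciliated markers 1 of 3 were called higher in AhR-KO, and of the hematopoietic markers 6 of 12 were called lower. Of the 4 alveolar type 1 and 5 alveolar type 2 markers, 0 were called. Over all genes, 9.22% were called higher and 12.9% lower. In that comparison 0 genes passed without the 2 AhR-KO libraries with Y-linked reads, and 0 to 4137 with a library left out. Their part in the AhR-KO values of the 7 genes after HDM was not tested.

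Leaving out the 2 AhR-KO HDM libraries with Y-linked reads left the AhR-KO against WT values after HDM at 2.24 for Wdfy1, 2.71 for Rab4a, -1.06 for Ide, 0.80 for Pik3ip1 and -2.32 for Glipr2 on the log2 scale. These 5 kept their direction, as did Rell1 at -0.16, and Rasl11a turned from -0.05 to 0.49. The 2 lines were also set side by side. At the naive stage, Rab4a, Rasl11a and Glipr2 were higher in every CYP1B1-KO library than in every AhR-KO library, Rell1 was lower, and Wdfy1, Ide and Pik3ip1 overlapped. After HDM, Wdfy1 was higher in AhR-KO and the other 6 genes overlapped.

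**Figure D4:**
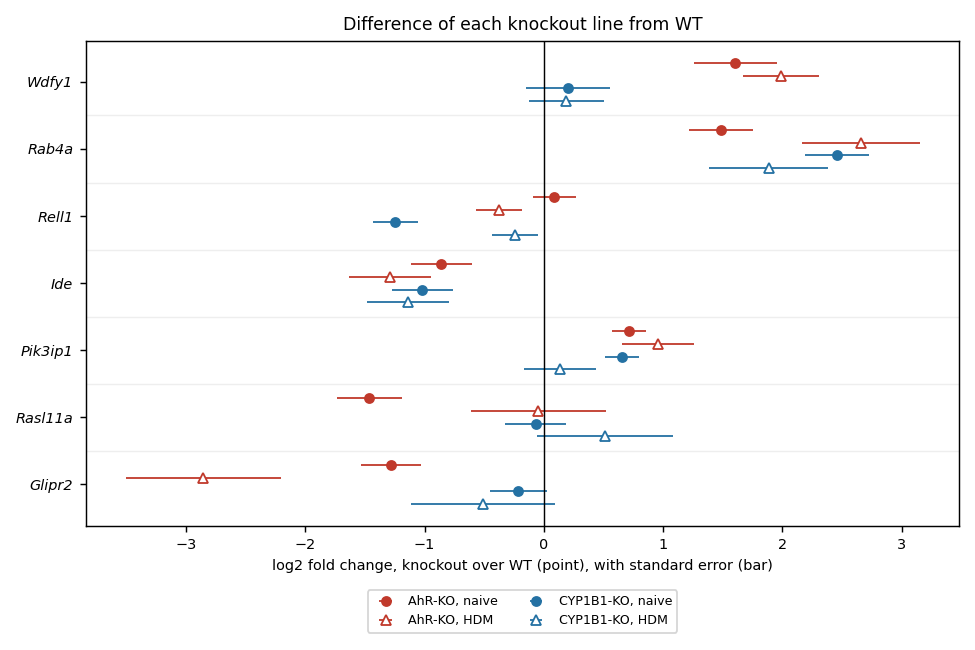
Log2FC of each knockout line over WT (horizontal axis) for the 7 genes, at the naive stage (filled circles) and after HDM (open triangles), with bars of 1 SE from edgeR. Rab4a lies right of 0 and Ide left of 0 in all 4 comparisons, and Rasl11a lies left of 0 by more than 1 only in naive AhR-KO (-1.46).

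The comparison of HDM with naive libraries within each genotype was not used to choose the genes, and it was tested with edgeR's quasi-likelihood test over all 16639 genes that passed the filter. It shares its libraries with the comparisons that chose the genes. A gene picked for a low naive group is therefore more likely to appear higher after HDM in that genotype, and one picked for a high naive group lower. A gene picked for a high HDM group is likewise more likely to appear higher after HDM, and one picked for a low HDM group lower. This holds for WT as for the 2 lines. In WT, 3 of the 7 genes passed the adjusted threshold of 0.05, 1 higher and 2 lower, beside 38.4% of all genes (19% higher and 19.4% lower). In AhR-KO 1 passed, lower, beside 20.6% (10.6% higher and 10.1% lower). In CYP1B1-KO 5 passed, 2 higher and 3 lower, beside 33.4% (15.5% higher and 17.9% lower). The median log2FC of the 7 genes was -0.15, -0.02 and -0.29, and that of all genes -0.11, -0.05 and -0.02. The median of all genes ran from -0.16 to -0.01 in WT, from -0.07 to 0.09 in AhR-KO and from -0.04 to 0.22 in CYP1B1-KO over the alternative settings, with the last value without naive CYP1B1-KO replicate 2.

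Markers of several cell types moved between the same states. Of the 5 epithelial markers, 4 fell in WT, 1 in AhR-KO and 4 in CYP1B1-KO, with median log2FCs of -1.61, -0.66 and -1.41. The 4 markers of alveolar type 1 cells, the thin cells of gas exchange, summed to a median of 15504 CPM in naive and 2586 CPM in HDM libraries of WT, to 15979 and 9559 CPM in AhR-KO and to 15556 and 1784 CPM in CYP1B1-KO. Of these 4, 3 fell in WT, 0 in AhR-KO and 4 in CYP1B1-KO. Of the 5 markers of alveolar type 2 cells, which secrete surfactant, 2 rose in WT, 4 in AhR-KO and 4 in CYP1B1-KO, with median log2FCs of 1.49, 3.32 and 3.17. Of the 12 hematopoietic markers, 11 rose in WT, 10 in AhR-KO and 11 in CYP1B1-KO, with median log2FCs of 4.75, 4.26 and 5.97. The part of these markers in the differences given next, of the 7 genes and of the gene lists, was not tested.

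Glipr2 rose 4.98-fold after HDM in WT (log2FC 2.32, SE 0.55, adjusted p = 0.00188), from 26.0 ± 7.16 to 129 ± 63.0 CPM (SD, n = 4 each). It rose 3.87-fold in CYP1B1-KO (log2FC 1.95, SE 0.60, adjusted p = 0.0146), although its libraries of the 2 states overlapped, and without CYP1B1-KO HDM replicate 3 the log2FC was 1.46 and the adjusted p 0.0631. In AhR-KO the log2FC was 0.72 (SE 0.58, adjusted p = 0.412), 0.049 without HDM replicate 2 and 1.37 (adjusted p = 0.0830) without the 2 libraries with Y-linked reads. The difference of the change between genotypes was not tested. The WT HDM libraries of Glipr2 lay above every AhR-KO HDM library, a gap of the kind by which the genes were chosen. Hematopoietic markers, given above, were higher in HDM libraries in all 3 genotypes.

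Rab4a fell after HDM in CYP1B1-KO, by 1.89 on the log2 scale (SE 0.42, adjusted p = 0.00110), from 14.7 ± 4.33 (SD, n = 3) to 4.09 ± 2.41 CPM (SD, n = 4), from the high naive libraries that had chosen it. In WT it fell by 1.13 (SE 0.43, adjusted p = 0.0390), from 2.56 ± 0.713 to 1.09 ± 0.505 CPM (SD, n = 4 each). The WT call was lost without any one of HDM replicates 2, 3 and 4 and naive replicates 1, 3 and 4, where the adjusted p ran from 0.0513 to 0.119, and was also lost with no filter, with all genes or without the dominant predicted genes (adjusted p 0.0534 to 0.0680). In AhR-KO Rab4a was at 7.27 ± 1.80 (SD, n = 3) and 6.97 ± 2.40 CPM (SD, n = 4), a log2FC of -0.02 (SE 0.41, adjusted p = 0.976).

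Pik3ip1 also fell in CYP1B1-KO, by 1.44 (SE 0.30, adjusted p = 0.000640), from 37.2 ± 3.61 (SD, n = 3) to 13.7 ± 4.84 CPM (SD, n = 4), again from high naive libraries that had chosen it. In WT it fell by 0.81 (SE 0.28, adjusted p = 0.0261), from 22.5 ± 3.44 to 12.8 ± 4.69 CPM (SD, n = 4 each), a call lost without WT HDM replicate 3 or 4 or WT naive replicate 4 (adjusted p 0.0716, 0.0938 and 0.0785), with no filter (0.0534) and with all genes (0.0521). In AhR-KO, where Pik3ip1 was at 37.5 ± 0.597 (SD, n = 3) and 24.8 ± 6.54 CPM (SD, n = 4), the log2FC was -0.60 (SE 0.30, adjusted p = 0.158), with every HDM library below every naive one.

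Ide was lower in every HDM library than in every naive library of its genotype. It fell by 1.27 in AhR-KO (SE 0.38, adjusted p = 0.0204), from 88.7 ± 37.4 (SD, n = 3) to 36.5 ± 17.2 CPM (SD, n = 4), and by 1.00 in CYP1B1-KO (SE 0.38, adjusted p = 0.0432), from 82.1 ± 7.49 (SD, n = 3) to 40.7 ± 19 CPM (SD, n = 4). In WT the log2FC was -0.88 (SE 0.35, adjusted p = 0.0514), just past the threshold, and it passed with RLE normalization, the likelihood ratio test, DESeq2, the compared groups only and without WT HDM replicate 3 (adjusted p 0.0456, 0.0410, 0.0316, 0.0254 and 0.0476). The naive WT libraries of Ide lay above both lines, a gap of the kind by which the genes were chosen. Such a gap makes an apparent fall in WT more likely. The AhR-KO call was lost without HDM replicate 2 (adjusted p = 0.0539), without naive replicate 1 (0.170) and without both libraries with Y-linked reads (0.121). The CYP1B1-KO call was lost without HDM replicate 1 or 2 or any one of the 3 naive libraries, with adjusted p from 0.0791 to 0.165, and with no filter, all genes, the compared groups only or the dominant genes left out (0.118, 0.0800, 0.0768 and 0.0679).

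Rell1 rose in CYP1B1-KO, by a log2FC of 1.11 (SE 0.26, adjusted p = 0.00149), from 12.9 ± 2.79 (SD, n = 3) to 27.7 ± 5.97 CPM (SD, n = 4), from the low naive libraries that had chosen it. In WT and AhR-KO it had log2FCs of 0.21 (SE 0.23, adjusted p = 0.512) and -0.28 (SE 0.25, adjusted p = 0.452). Wdfy1 did not pass in any genotype, with log2FCs of -0.15, 0.20 and -0.29 in WT, AhR-KO and CYP1B1-KO (SEs 0.35, 0.37 and 0.38). Rasl11a was at -0.11, 1.27 and 0.23 (SEs 0.45, 0.51 and 0.49), and the AhR-KO value, with an adjusted p of 0.0783, came to 1.92 (adjusted p = 0.00877) without the 2 libraries with Y-linked reads. It also passed with DESeq2 (adjusted p = 0.0440) and without AhR-KO HDM replicate 3 (0.0272) or 4 (0.0347), and was 0.81 (adjusted p = 0.266) without replicate 2.

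**Figure D5:**
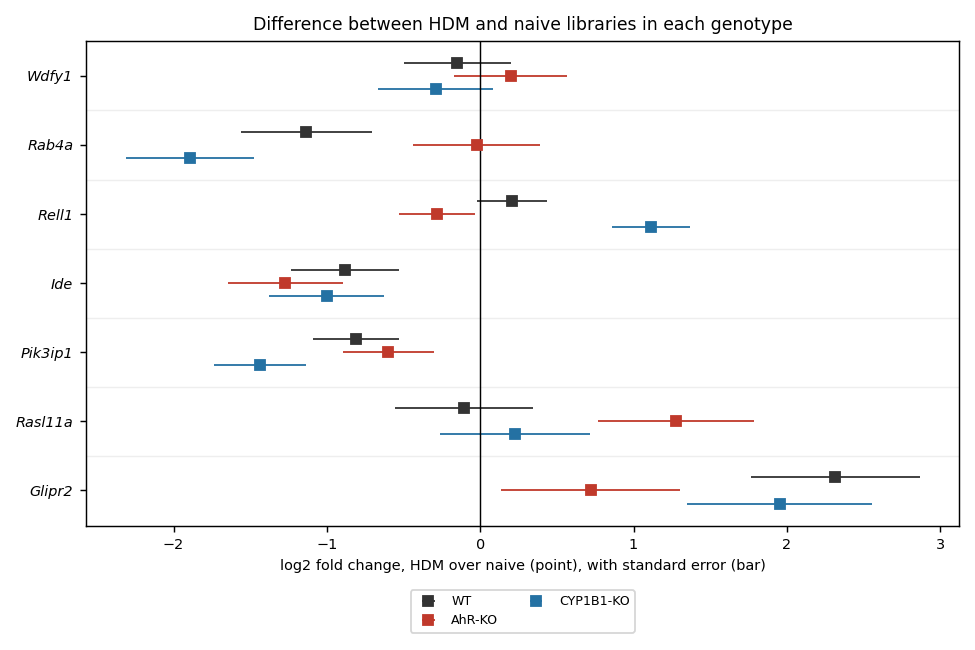
Log2FC of HDM over naive libraries (horizontal axis) for the 7 genes in WT, AhR-KO and CYP1B1-KO, with bars of 1 SE from edgeR. Ide lies left of 0 in all 3 genotypes, Glipr2 right of 0, and Rell1 is at 1.11 in CYP1B1-KO beside 0.21 and -0.28 in WT and AhR-KO.

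Genes of related roles were counted in the same tests. Of 28 other genes of early and recycling endosomes, 3 rose and 13 fell after HDM in WT, 3 rose and 8 fell in AhR-KO, and 2 rose and 13 fell in CYP1B1-KO, with medians of -0.43, -0.46 and -0.74. Rab11fip1, an effector that links RAB11 to recycling endosomes, fell by 2.5 in WT (SE 0.36, adjusted p = 1.69e-05) and by 3.30 in CYP1B1-KO (SE 0.38, adjusted p = 5.41e-06), and by 1.64 in AhR-KO (SE 0.37, adjusted p = 0.00400). Pik3r4, the regulatory subunit of the kinase that makes the lipid Wdfy1 binds, fell in all 3 genotypes, by 1.20, 1.44 and 1.43. None of the 28 genes passed the threshold between a knockout and WT at the naive stage, where 1 in AhR-KO and 2 in CYP1B1-KO did not overlap WT.

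Of 11 genes around TLR3 and TLR4 signalling, on which Wdfy1 acts, 4 rose and 0 fell in WT, 4 rose and 1 fell in AhR-KO and 4 rose and 0 fell in CYP1B1-KO. Cd14, the co-receptor of TLR4, rose by log2FCs of 3.86, 5.03 and 4.87 in the 3 genotypes, and Ticam2, an adaptor of TLR4, by 5.20, 2.61 and 5.26. Both are also expressed by leukocytes, whose markers were higher in the same libraries.

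Of 17 PI3K subunits and brakes, 8 rose and 3 fell in WT, 6 rose and 1 fell in AhR-KO and 7 rose and 3 fell in CYP1B1-KO. The lead genes in WT were Inpp5d and Pik3cg, a phosphatase and a catalytic subunit of leukocytes, at log2FCs of 5.44 and 4.53 (SEs 0.81 and 0.76). Of the 3 tested genes of the RELT family and its kinases, 2, 3 and 2 rose in WT, AhR-KO and CYP1B1-KO. Relt itself rose by 5.60, 4.19 and 5.31.

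Among 9 other peptide-degrading metallopeptidases, insulin and growth factor receptors and their substrates, 0 rose and 4 fell in WT, 2 rose and 1 fell in AhR-KO and 1 rose and 4 fell in CYP1B1-KO. Ece1, the endothelin-converting enzyme, fell in all 3 genotypes, by 1.97, 2.22 and 2.52. Of 14 RAS-like GTPases, 4, 6 and 4 rose and 1 fell in each genotype. Rasl11b, the closest named relative of Rasl11a, fell by 2.15 in WT (SE 0.39, adjusted p = 0.000159), by 1.25 in AhR-KO (SE 0.41, adjusted p = 0.0325) and by 1.76 in CYP1B1-KO (SE 0.41, adjusted p = 0.00184). Of 12 genes of the CAP family and beclin complex, 1 rose and 4 fell in WT and in AhR-KO, and 1 rose and 2 fell in CYP1B1-KO. Glipr1, a relative of Glipr2, rose by 4.94, 3.33 and 5.31, and Rubcn, an inhibitor of the beclin complex, fell by 1.69, 2.05 and 1.96. Between a knockout and WT, edgeR called 0 of all genes in naive AhR-KO, 0.0129% in naive CYP1B1-KO (0.00643% higher and 0.00643% lower), 22.1% in AhR-KO after HDM (9.22% higher and 12.9% lower) and 0 in CYP1B1-KO after HDM. None of these lists held a called gene in the first 2 of these comparisons or the last. In AhR-KO after HDM, 5 endosome genes were higher and 3 lower than in WT, 1 PI3K gene was higher and 5 were lower, and the other lists held at most 1 higher and 2 lower genes. In that comparison 0 genes passed without the 2 libraries with Y-linked reads. The lists were written with earlier results of these data known.

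Genes at which C57BL/6 substrains are known to differ were read beside the 7. Crb1, Cyfip2, Nlrp12, Mmrn1 and Dock2 passed the filter on the naive libraries, and none of them was apart between a knockout and WT there. Nnt, the mitochondrial transhydrogenase, did not pass, with at most 7 counts in a naive library, and Entpd4 and Entpd4b had 0 counts in every library. For counting error alone, 0 counts allow up to 3 each. How reads that match several genes were counted is not given, so absence of these 2 transcripts is not read from the zeros. After HDM, Cyfip2 was lower in AhR-KO (1.82 to 13.6 CPM) than in WT (21.8 to 52.7 CPM), a log2FC of -2.19 (SE 0.58, adjusted p = 0.0287), and so was Dock2, which is expressed by leukocytes (log2FC -2.75, SE 0.79, adjusted p = 0.0338). In that comparison 0 genes passed without the 2 AhR-KO libraries with Y-linked reads or without any one of AhR-KO HDM replicates 1, 3 and 4 and WT HDM replicates 3 and 4, and 1 passed with the replicate block. Hematopoietic markers were lower in the same AhR-KO libraries, and their part in these values was not tested.

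Neighbouring genes were read in the same way. Within 1 Mb of them, 143 other protein-coding genes were tested at the naive stage. The libraries of AhR-KO and WT did not overlap for 7 of them (4.90%), and those of CYP1B1-KO and WT for 6 (4.20%), beside the 3.56% and 2.93% of all genes given above. After HDM the counts were 31 of 135 (23.0%) and 1 of 135 (0.741%), beside 19.5% and 0.621%. The closest neighbour apart at the naive stage was Ccsap, 5.54 kb from Rab4a, at 1.02 to 1.09 CPM in AhR-KO and 0.477 to 0.677 CPM in WT. Near Ide, Btaf1, a regulator of the TATA-binding protein 256 kb away, was at 36.1 to 68.6 CPM in naive CYP1B1-KO and 78.3 to 109 CPM in naive WT, and Hectd2 at 0.295 to 0.507 and 0.677 to 1.25 CPM, while Ppp1r3c was higher, at 0.811 to 0.993 and 0.460 to 0.802 CPM. Near Glipr2, Spaar was lower in naive AhR-KO (6.59 to 8.50 CPM) than in WT (10.7 to 15.8 CPM), while Rusc2 was higher in both lines, at 178 to 217 CPM in AhR-KO, 195 to 210 in CYP1B1-KO and 124 to 177 in WT. No neighbour of Wdfy1, Rell1 or Rasl11a was apart at the naive stage. Within 5 Mb the shares were 4.26%, 3.89%, 22% and 0.800%.

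The genes most like each of the 7 were sought by Pearson's r of log2 CPM over the 22 libraries, after the mean of each table was subtracted, among 16639 genes. The libraries of a table share their run, depth and cell mixture, so these values are a description. Genotype means were not subtracted, so r also carries the gaps between a knockout and WT by which the 7 genes were chosen. Wdfy1 was most like Nr1d1 (r = 0.83), a nuclear receptor of the circadian clock, Paip2b (0.83) and Phf2 (0.79). Rab4a was most like Mpzl1 (0.87), Zfp606 (0.84) and Sept8 (0.82), and Pik3ip1 like Hacd3 (0.93), Nedd4l (0.91), a ubiquitin ligase of sodium channels, and Lpin2 (0.90). For Rell1 they were Srbd1 (0.80), Il3ra (0.73) and Casp4 (0.69), and for Ide Rmnd1 (0.78), Mgat4a (0.78) and 6430531B16Rik (0.77). Rasl11a went with the tight-junction gene Cldn3 (0.85), Cybrd1 (0.84) and Lbp (0.84). Glipr2 went with Lrwd1, Cnp and Pltp (0.95 each). By Spearman's rho, Sept8 ranked first for Rab4a, Srbd1 for Rell1 and Mgat4a for Ide, while Nr1d1 ranked 71 for Wdfy1 and Nedd4l 42 for Pik3ip1. Of these, Srbd1 and Lpin2 lie on chromosome 17, both within 10 Mb of Cyp1b1. Among the 7 genes, Rab4a and Pik3ip1 were the most alike (r = 0.80, rho = 0.76), followed by Wdfy1 and Pik3ip1 (r = 0.72), and Glipr2 ran opposite to Pik3ip1 (r = -0.67) and Wdfy1 (r = -0.66).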

How the data were processed

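RNA from sorted lung ECs of WT, AhR-KO and CYP1B1-KO mice, naive or after HDM, was sequenced in 2 runs. Per the study's methods, the authors used bbduk for trimming, GSNAP for alignment to mm10 and featureCounts 2.0.0 for counting. The submitters' processing notes also name bcl2fastq 2.19.1. The deposited values are counts, whole numbers per gene without normalization. Strand and multi-mapping settings are not given in the sources used here. Of 54373 genes listed, 54147 matched GENCODE M21, and 21793 protein-coding genes were kept.

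Low genes were removed with filterByExpr (at least 10 counts, 15 in total). The rest were normalized with TMM and tested with edgeR 4.0.16 (glmQLFit with robust estimation, glmQLFTest, Benjamini-Hochberg adjustment) in R 4.3.3. Knockouts were fitted against WT within each table with its 3 genotypes, and HDM against naive over all 22 libraries and 6 groups. Standard errors (SE) follow from the log2FC and its F statistic, as the size of the former over the root of the latter. Log2 CPM used a prior count of 1.

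The members and gene lists were chosen with earlier results of these data known. Named genes were the 7 members, Ahr and Cyp1b1, substrain genes past the filter, for each member the 3 genes of highest Pearson r and up to 3 neighbours within 1 Mb whose libraries did not overlap, and up to 4 called genes of each role list. Some genes this rule names are not reported here. The main fits did not pair libraries by replicate number, as no label says that same-numbered libraries belong together. Correlations of same-numbered deviations from the group means ran from -0.56 to 0.75, which does not settle whether they do. Scripts were tested on simulated data. The alternatives were RLE normalization, no filter, edgeR's likelihood ratio test, DESeq2 1.42.0, all listed genes, a replicate block, the compared groups only, each library left out, a 5 Mb window and Spearman's rho. Leaving out predicted genes with at least 1% of a library, leaving out the AhR-KO HDM libraries with Y-linked reads, and other scalings for overlaps were chosen after the data were seen. A pseudogene within Ide was named after its values were seen.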

Additional observations from a re-analysis of the deposited data

Results flagged for a closer look

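In naive WT replicate 4, Ide was at 212 CPM while the 3 other libraries of the group were between 140 and 146 CPM, and Pik3ip1 was at 27.7 CPM beside 20.5 to 21.5 CPM, so this library stood far from the others of its group for both genes. Of 28 such sets of 4 libraries tested, 2 stood out, and chance gives about 1 in 20. The library had the largest total of the naive table, 17707000 counts. With totals that leave out the dominant predicted genes and no scaling factor, Ide was at 327 CPM beside 273 to 291 CPM and Pik3ip1 at 42.6 CPM beside 40.1 to 42.8 CPM. On the 3 other scalings replicate 4 stayed above the others for both genes, with Pik3ip1 at 36.2 CPM beside 30.1 to 31.2 with TMM within the table, 24.8 beside 20.6 to 21.2 with RLE and 48.0 beside 39.8 to 41.1 with TMM without dominant genes. The cause was not tested.

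Gm12592, a transcript that is not protein-coding and overlaps the 5′ end of Pik3ip1 on the other strand, was counted above every naive WT library in each naive CYP1B1-KO library, at 0.471 CPM or more beside at most 0.432 CPM in WT. The counts are low, 35 over the 3 CYP1B1-KO libraries and 23 over the 4 WT libraries. Pik3ip1 was higher in the same libraries, and without strand the reads of the 2 genes cannot be told apart where they overlap. In naive AhR-KO, where Pik3ip1 was also above WT, Gm12592 was at 0.359 to 0.738 CPM (26 counts) and overlapped WT. After HDM Gm12592 overlapped WT in both lines. The cause was not tested.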

How the results depend on the processing

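Between AhR-KO and WT at the naive stage, 0 genes passed in edgeR (263 at an unadjusted p under 0.05), 11 by the likelihood ratio test, 13 by DESeq2, 5 with the compared groups only and 0 to 1 with a library left out. For CYP1B1-KO the count of 2 became 5 by DESeq2, 0 with the replicate block (359 unadjusted), 0 with the compared groups only (509 unadjusted) and 0 to 4 with a library left out. After HDM, the AhR-KO count of 3129 became 1802 with no filter, 1 with the replicate block, 0 without both libraries with Y-linked reads (3126 unadjusted) and 0 to 4137 with a library left out. It was 0 without AhR-KO HDM replicate 1, 3 or 4 or WT HDM replicate 3 or 4, and 885 without WT HDM replicate 1. For CYP1B1-KO after HDM 0 genes passed (233 unadjusted), and 1 by the likelihood ratio test and by DESeq2. HDM against naive in AhR-KO called 3435 genes, and 1532 to 3935 with a library left out, 2083 without AhR-KO HDM replicate 1 and 2156, 1720 and 1532 without naive AhR-KO replicates 1, 3 and 4.

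Of the 7 genes' values between a knockout and WT, 208 with a library left out and 230 under other settings moved by less than 1 SD, and 3 moved more. The replicate block, for numbers not known to pair the libraries, changed no call of a member between states. Between a knockout and WT, Wdfy1 in naive CYP1B1-KO (0.21) was -0.05 with the replicate block, and Rasl11a in AhR-KO after HDM (-0.05) ran from -0.60 to 0.36 with a library left out and was 0.49 without the libraries with Y-linked reads. With a library left out, Rell1 in naive AhR-KO, Rasl11a and Glipr2 in naive CYP1B1-KO and Pik3ip1 in CYP1B1-KO after HDM, each within 1 SE of 0, also changed sign. Between states, the values whose sign changed had not passed the threshold. Rasl11a in WT (-0.11) was 0.021 with all genes and ran from -0.69 to 0.10 with a library left out. Rasl11a in CYP1B1-KO (0.23) was -0.035 with the replicate block. Rab4a in AhR-KO (-0.02) was 0.029 with RLE and with DESeq2, 0.044 with no filter, 0.088 with all genes, 0.057 with the compared groups only, 0.059 without dominant genes, 0.12 without the libraries with Y-linked reads, and -0.19 to 0.20 with a library left out. Rell1 in AhR-KO (-0.28) was 0.046 without the libraries with Y-linked reads. Wdfy1 in AhR-KO (0.20) ran from -0.21 to 0.59 with a library left out, and was negative without naive replicate 1. The cause was not tested, beyond the fewer samples these fits hold. Depth limits Rab4a, with 3 to 41 counts per WT HDM library.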
